A study of Mus musculus with 18 samples.

Results

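The comparison described here set the 6 libraries numbered replicate 2 against the 6 numbered replicate 1, which makes 12 of the 18 libraries of the series. The libraries were taken by their replicate numbers, and this pair of numbers was chosen with earlier results of these data known. All libraries came from AML12, a non-transformed mouse hepatocyte line derived from a mouse transgenic for transforming growth factor α, whose clock had been synchronized. Cells received the solvent DMSO or pemafibrate, which acts selectively on PPARα, the fatty acid sensing nuclear receptor, in 1 of 3 windows. The windows ran from T0 to T24 (24 h of exposure), from T14 to T20 (6 h, a day-like time) and from T24 to T30 (6 h, a night-like time). That gave 6 groups with replicates numbered 1, 2 and 3, so that each group contributed 1 pair of libraries, replicate 2 and replicate 1, and treatment and window were the same within a pair. The labels state only the numbers and name no culture, passage or date behind them. A p-value here therefore measures how steadily the libraries numbered 2 differed from those numbered 1 across the 6 groups, and not whether such a difference would recur between cultures. The 6 pairs also repeat the same 2 replicate numbers.

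A hepatocyte line varies in culture along several axes that are well known. Metallothioneins are small cysteine-rich proteins that bind zinc and copper, and their genes are switched on by the zinc-sensing factor MTF-1 through metal response elements. The genes of cholesterol synthesis are driven together by the factor SREBP-2, which INSIG1 holds in the endoplasmic reticulum when sterol is plentiful. Albumin is the main plasma protein made by hepatocytes and its mRNA commonly falls as such cells lose liver character in culture, while actin genes and the targets of the coactivator YAP follow cell spreading and density.

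The difference between the replicate numbers was broad and shallow. Of 13303 genes with a mean normalized signal of at least 10, 2702 (20.3%) were called higher in replicate 2 and 2727 (20.5%) lower, at a Benjamini-Hochberg adjusted p under 0.05 from limma. Normalized signal is the authors' estimated count per gene after their scaling, and differences are given on the scale of log2(signal + 1), which understates those of low genes. The median absolute log2 difference of called genes was 0.276, and 4425 of the 5429 called genes had the same sign in 6 of 6 pairs. With the added requirement of a 2-fold difference, 101 genes (0.759%) were higher and 104 (0.782%) lower. All 6 replicate 2 libraries lay above all 6 replicate 1 libraries for 1115 genes (8.38%) and below them for 968 (7.28%). These shares are the background against which each gene group below has to be read. When DMSO and pemafibrate pairs were averaged within each window, which leaves 3 units, 1606 genes were called higher and 1675 lower. The 3 DMSO pairs alone gave 681 and 660, and the 3 pemafibrate pairs 1347 and 1381. The T14 to T20 window alone gave 2101 and 2130, so the count did not follow the number of pairs alone. What set these counts was not tested, and counts in the gene groups below also changed with the pairs used.

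The replicate 3 libraries gave a further reference. Against replicate 3, replicate 2 was called higher for 22.4% and lower for 23.8% of 13239 genes tested, and it was called higher than both other numbers for 8.91% and lower than both for 8.94% of the 13159 genes tested in both. Those comparisons share the replicate 2 libraries, so their values are set side by side and not taken as separate support. Normalized totals were 31461977 to 33050070 in replicate 1 and 32183191 to 32927527 in replicate 2, the number of genes above 0 was 17518 to 17953 and 17538 to 17744, and mitochondrially encoded genes held 2.48 to 3.44% and 2.82 to 3.39% of the signal. The hepatocyte label held in part. Of the listed hepatocyte genes 20 of 21 transcription factors, such as Hnf4a, passed the minimum mean, as did 21 of 34 secreted proteins, such as Alb, while F7 and F9 were at 0 in all 12 libraries. Of 28 enzymes and transporters 20, among them Cps1, Cyp2e1 and Pck1, were below that minimum. Several defining markers of macrophages, endothelium and stellate cells were at or near 0, but not all. Ptprc and Cd14 of the macrophage and leukocyte list passed the minimum mean. Adgre1, Clec4f, Vsig4, Emcn and Hgf were at 0 in all 12 libraries, Pdgfrb, Cdh5 and Kdr reached at most 3.03, and of the 12 macrophage and leukocyte, 11 endothelial and 15 stellate markers only 4, 3 and 4 passed the filter. The summed signal of each marker list was 5182 to 6212 in replicate 1 and 4970 to 6394 in replicate 2 for macrophages and leukocytes, 132.8 to 184.2 and 147.4 to 278 for endothelium, 2085 to 2607 and 3023 to 4133 for stellate cells and fibroblasts, and 58900 to 66640 and 76250 to 82880 for cholangiocytes. Most of the macrophage sum was Cd14, which was not called, and most of the last 2 sums came from Gsn, an actin-severing protein, and Spp1, the matrix protein osteopontin, which also occur outside those cell types and were higher by 0.64 ± 0.04 and 0.58 ± 0.07. A list of nuclear RNA and of histone transcripts that mostly lack a poly(A) tail was kept as a sign of RNA quality and poly(A) selection, and it also differed between the numbers. Of its 7 tested members, all histone transcripts, 4 were higher and none lower in replicate 2 (median 0.41), and its summed signal was 2384 to 2493 in replicate 1 and 2549 to 3572 in replicate 2, without overlap. The part of these lists in the results below was not tested.

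Both expressed metallothionein genes were more than 2-fold higher in replicate 2. For each gene that follows, the values of the 6 libraries are given as the lowest, the median and the highest, and where values are set against each other those of replicate 1 come first. Log2 differences carry the moderated standard error of the limma fit to the 6 pairs. In it each gene's variance is drawn towards that of genes of like signal, so it is not the plain spread of the pairs. Mt1 had 6431, 7095 and 7229.5 in replicate 1 and 14455, 14776 and 17357 in replicate 2. Every replicate 2 library exceeded every replicate 1 library, and the fitted ratio was 2.18-fold, a log2 difference of 1.13 ± 0.04 (adjusted p = 6.8e-07). Mt2 had 3753, 3994 and 4252 in replicate 1 and 9313, 9630.3 and 10648 in replicate 2, again without overlap (log2 1.28 ± 0.03, adjusted p = 8.5e-08). The libraries numbered 3 lay between, with 9778, 10418 and 11608 for Mt1 and 6295, 6686 and 7484 for Mt2, and replicate 2 was called higher than replicate 3 for both (0.53 and 0.54). The difference was not called as dependent on the window. In the order T0, T14 and T24 of the window's start it was 1.09, 1.15 and 1.14 for Mt1 and 1.26, 1.33 and 1.26 for Mt2. Mt1 and Mt2 are close paralogs, and how reads were divided between them is uncertain. Mt3, the brain form, was at 0 throughout.

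**Figure D1:**
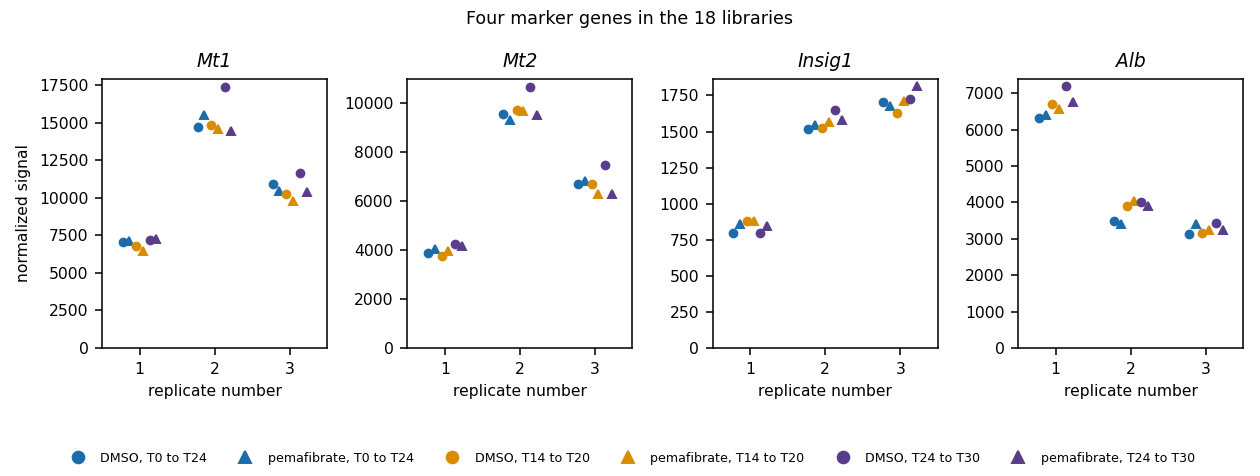
Normalized signal (linear axis from 0) of Mt1, Mt2, Insig1 and Alb in all 18 libraries, by replicate number, with 1 point per library and colour and shape for window and treatment. For Mt1 and Mt2 the 6 replicate 2 points lie above both other numbers, for Insig1 replicate 1 stands below the others, and for Alb replicate 1 stands above the others.

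The wider zinc list did not move as one. Of 19 tested members, 5 were called higher and 4 lower, with a median log2 difference of 0.05 beside −0.0024 over all genes. Slc39a10, a zinc importer of the plasma membrane, had 4671, 5165 and 6121 in replicate 1 and 8029.9, 11626 and 11956 in replicate 2, a log2 difference of 1.00 ± 0.05 (adjusted p = 2.9e-06), with no overlap, and the replicate 3 libraries resembled replicate 2 in level (8649.7, 10907 and 11418). Slc30a1, the exporter that removes zinc from the cell, had 1144, 1334 and 1419 against 1625, 1724 and 1869.5 (log2 0.38 ± 0.05, adjusted p = 0.00041), also without overlap. The importer Slc39a1 was higher by 0.15. Slc39a14, an importer of zinc and iron, fell by 0.34 and the vesicle transporter Slc30a4 by 0.37, while Slc39a6 and Slc39a4 fell by 0.17 and 0.14 on the log2 scale. Mtf1, the zinc sensor itself, had 585, 700.1 and 812 in replicate 1 and 608, 667 and 735 in replicate 2, and was not called (log2 −0.04 ± 0.08, adjusted p = 0.74).

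The sequences just before the transcription starts of the metallothioneins and of Slc30a1 are shown because MTF-1 sites are known in these promoters. Each is the 250 bases before the start in RefSeq (build GRCm38.p6), written on the gene's strand, and capitals mark matches on either strand to the core of the metal response element, TGCNCNC. Mt2 lies at chr8:94172368-94172617 (plus strand), Mt1 at chr8:94178839-94179088 (plus strand) and Slc30a1 at chr1:191906531-191906780 (plus strand).
Mt2: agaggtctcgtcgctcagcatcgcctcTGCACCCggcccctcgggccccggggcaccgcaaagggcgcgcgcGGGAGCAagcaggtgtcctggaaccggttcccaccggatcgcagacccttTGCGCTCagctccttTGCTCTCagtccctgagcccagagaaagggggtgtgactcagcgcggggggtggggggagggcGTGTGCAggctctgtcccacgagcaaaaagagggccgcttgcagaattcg
Mt1: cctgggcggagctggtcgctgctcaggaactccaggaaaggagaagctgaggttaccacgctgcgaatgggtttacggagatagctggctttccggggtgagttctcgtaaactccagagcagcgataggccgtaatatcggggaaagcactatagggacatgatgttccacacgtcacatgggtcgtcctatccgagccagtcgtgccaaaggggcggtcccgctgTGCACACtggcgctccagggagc
Slc30a1: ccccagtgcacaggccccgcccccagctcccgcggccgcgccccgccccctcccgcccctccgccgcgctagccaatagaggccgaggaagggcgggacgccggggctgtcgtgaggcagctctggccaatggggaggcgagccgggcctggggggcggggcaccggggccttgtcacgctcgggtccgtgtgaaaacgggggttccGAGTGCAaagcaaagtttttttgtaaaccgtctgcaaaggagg
The Mt2 window held 5 matches, and windows with at least 4 made up 1.28% of the 32851 windows of all genes. The Mt1 and Slc30a1 windows held 1 each, which 44.4% of all windows did at least. These counts cover only the 250 bases before the start annotated in RefSeq. Bases outside that window, including those after the start, were not searched. The counts are therefore not the number of matches in the whole promoter. Whether the known MTF-1 sites lie inside these windows was not checked, so the counts do not describe those sites. Of the 9 called genes of the zinc list, 6 had a window in the table and 5 of these held a match, while Slc39a10 held none in its windows. A match is a run of letters and not evidence of binding.

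Iron storage and uptake genes moved as well, in different directions. Of 21 tested genes of copper and iron handling 9 were higher and 3 lower. Ftl1, the light chain of the iron store ferritin, had 85798, 98522 and 106200 against 118420, 158930 and 170150, without overlap (log2 0.62 ± 0.05). Fth1, the heavy chain, had 58571, 62953 and 67224 against 81179, 90530 and 93614, also without overlap (log2 0.51 ± 0.03). Hmox1, the haem-degrading enzyme, was higher by 0.68 ± 0.07 and the ferrireductase Steap3 by 0.61 ± 0.04. Against replicate 3, Ftl1 and Hmox1 were not called (log2 −0.05 and −0.10), and Steap3 was called higher (0.21). Tfr2, the iron sensor of hepatocytes, had 224, 244 and 306 in replicate 1 and 390.2, 468 and 506 in replicate 2 (log2 0.86 ± 0.08, adjusted p = 5.8e-05), and replicate 3 was at 210.0, 268 and 309.7. The 3 that fell were Tfrc, the receptor that takes up transferrin (−0.26 ± 0.05), the iron exporter Slc40a1 (−0.17 ± 0.04) and Lcn2, which binds bacterial siderophores (−0.41 ± 0.08), each in 6 of 6 pairs and with overlapping libraries. Ferritin pseudogenes are common in the mouse, so the exact division of ferritin reads is uncertain.

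Of the 35 gene lists, cholesterol synthesis and uptake had the largest share of tested members called in 1 direction. Of 23 tested genes of cholesterol synthesis and uptake 22 were higher in replicate 2 and none was lower, beside 20.3% higher over all genes, with a median log2 difference of 0.61, and for 19 of the 23 the libraries did not overlap (8.38% of all genes). Insig1, the sterol-controlled brake on SREBP processing, had 795, 851 and 880.4 in replicate 1 and 1516, 1554 and 1651 in replicate 2, a log2 difference of 0.89 ± 0.04 (adjusted p = 2.3e-06). Srebf2, which encodes SREBP-2, had 7781, 7947 and 8329.6 against 10188, 10973 and 11956 (log2 0.46 ± 0.04). Scap, the escort protein of SREBP, was at 2403, 2545 and 2594 against 2374, 2562 and 2697 and was not called (log2 0.01 ± 0.04).

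Along the pathway the enzymes rose together. Hmgcs1, at the entry to the mevalonate route, was higher by 0.53 ± 0.05, with 2683, 2823 and 3169 against 3513, 4272 and 4849.8. The isoprenoid enzymes stood highest in the list. Idi1 had 1121, 1469.8 and 1828 in replicate 1 and 2316, 2825 and 3223 in replicate 2 (log2 0.96 ± 0.05, adjusted p = 3.6e-06), and Mvd and Fdps were higher by 0.87 ± 0.06 and 0.83 ± 0.04. Squalene epoxidase, Sqle, had 2121, 2367 and 2502 against 3202, 3703 and 3963 (log2 0.62 ± 0.04). Among the late enzymes Nsdhl was higher by 0.77 ± 0.05, and Ebp, at 0.21 ± 0.04, by the least of the 22. The exception was Pmvk, with 135, 149.7 and 205 against 135, 195 and 234 in overlapping libraries (log2 0.23 ± 0.11, adjusted p = 0.11). With pairs averaged within windows 21 of the 23 were called.

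**Figure D2:**
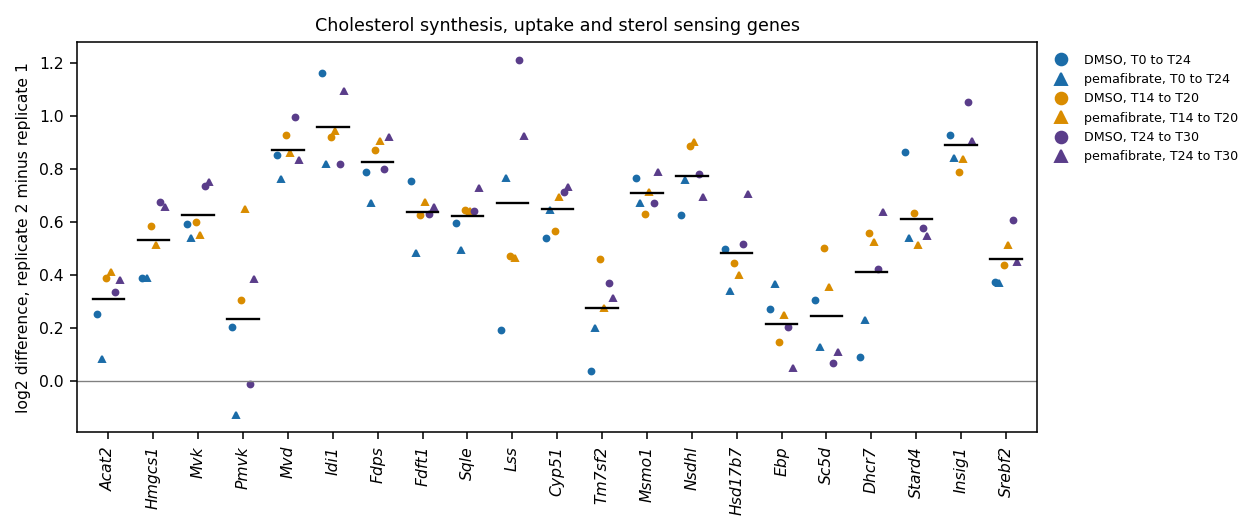
Log2 difference, replicate 2 minus replicate 1, of 19 of the 23 tested genes of cholesterol synthesis and uptake in pathway order, with Insig1 and Srebf2 at the right. Each gene has 6 points, 1 per pair of libraries, and a black bar at the fitted difference. Pmvk has 2 points below 0 and every other point lies above 0.

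Replicate 2 was not the highest of the 3 numbers for these genes. Against replicate 3 none of the 23 was higher and 20 were lower, with a median of −0.28. Sqle had 4389, 4743 and 5122 and Idi1 3259.5, 3850.4 and 4076 in replicate 3, all above the replicate 2 values. Genes that release or store sterol moved less evenly. Of 16 tested genes of sterol sensing 6 were higher and 2 lower. Npc2, which hands cholesterol out of the lysosome, was higher by 0.57 ± 0.03 and Mylip, a ubiquitin ligase of sterol uptake, by 0.56 ± 0.11. Abca1, which exports cholesterol, fell by 0.27 and Soat2, which esterifies it, by 0.50, each lower in 5 of 6 pairs, and neither was called lower without the T0 to T24 window.

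The 250 bases before the Hmgcs1 start are shown because a sterol regulatory element was described early in that promoter. The window lies at chr13:119690101-119690350 on the plus strand of GRCm38.p6, and capitals mark the match to TCACNCCAC, searched on both strands.
Hmgcs1: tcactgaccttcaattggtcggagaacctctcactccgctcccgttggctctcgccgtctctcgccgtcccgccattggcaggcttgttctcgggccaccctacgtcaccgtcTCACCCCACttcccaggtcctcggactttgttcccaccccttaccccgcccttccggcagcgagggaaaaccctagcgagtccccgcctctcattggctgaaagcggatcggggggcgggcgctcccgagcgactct
That motif was in 1.05% of all windows. Among the 22 called genes of the list, 14 had a window and Hmgcs1 alone held a match. The letters were absent from the windows of Insig1, Idi1, Mvd and Srebf2, which says only that this spelling does not occur in those 250 bases.

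Fatty acid and triglyceride synthesis showed a part of the same pattern. Of 20 tested genes 8 were higher and 2 lower, with a median of 0.04. The desaturase Scd2 had 33458, 35376 and 37740 in replicate 1 and 43075, 57895 and 61438 in replicate 2 (log2 0.60 ± 0.06). Fads1 and Fads2, which desaturate polyunsaturated fatty acids, were higher by 0.47 ± 0.03 and 0.44 ± 0.05, and the elongase Elovl6 by 0.45 ± 0.05. Acly, which supplies acetyl-CoA, was higher by 0.13, and Me1 and Mlxipl fell by 0.14 and 0.29. No gene of the list was called lower without the group term, with the 3 pemafibrate pairs, with pairs averaged within windows or without the T0 to T24 window, and 1 was with the 3 DMSO pairs. Srebf1, the lipogenic SREBP, was not called, at 4296, 5121 and 5339 against 4832, 5358 and 5516.

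Most lysosome and autophagy genes were higher in replicate 2 than in either other number. Of 28 tested, 22 were higher and 1 lower than in replicate 1, with a median of 0.28, 17 without overlap, and 19 were called higher than both replicate 1 and replicate 3 (8.91% of all genes). Ctsd, a major lysosomal protease, had 24930, 26394 and 27344 in replicate 1, 32196, 32448 and 34168 in replicate 2 and 29014, 29739 and 31409 in replicate 3. Its difference from replicate 1 was 0.32 ± 0.03, and the groups did not overlap. Lamp1, a membrane protein of the organelle, was higher by 0.27 ± 0.03, the proton pump subunit Atp6v0d1 by 0.56 ± 0.04, the protective protein Ctsa by 0.46 ± 0.03 and α-galactosidase, Gla, by 0.67 ± 0.08. Gabarapl1, an autophagosome protein, was the member that fell, by 0.19. Tfeb, the transcription factor of lysosomal genes, had 385, 413 and 452 against 408, 470.5 and 541 and was not called (log2 0.20 ± 0.07, adjusted p = 0.053).

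Many innate immune genes were higher in replicate 2 as well. Of 25 tested interferon response genes 16 were higher and none lower, with a median of 0.49, and 12 of the 25 were above both other numbers. B2m, the light chain of MHC class I, had 11765, 12654 and 14510 in replicate 1 and 18101, 19180 and 22071 in replicate 2 (log2 0.60 ± 0.03, adjusted p = 5.7e-06). Ifit3, an antiviral effector, had 122, 150.5 and 170.4 against 194, 241 and 284 (log2 0.69 ± 0.07), and the GTPase Gbp2 had 150.0, 157 and 168 against 239, 262 and 296 (log2 0.74 ± 0.07). For these 3 genes the libraries did not overlap. Irf7, a transcription factor of interferon genes, was higher by 0.45 ± 0.11. Others rested on low signal with overlapping libraries. Oas1a, an antiviral nucleotide synthase, had 0, 3.97 and 10.9 against 8.89, 15.9 and 22. Gbp3, another GTPase, had 8.9, 17 and 22.7 against 19.1, 36.3 and 40.4. With the 3 DMSO pairs alone 7 of the 25 were called and with the 3 pemafibrate pairs alone 10.

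Among acute phase and complement genes 11 of 18 tested were higher and 2 lower (median 0.33), and among chemokines and targets of NF-κB 11 of 19 were higher and 2 lower (median 0.26). Hp, the haemoglobin scavenger haptoglobin, had 689, 741 and 777 in replicate 1 and 1331, 1504 and 2236 in replicate 2, without overlap (log2 1.15 ± 0.10, adjusted p = 3.6e-05), and 583, 653 and 1026 in replicate 3. Saa3, an inducible serum amyloid A, had 5042, 5228 and 5486 against 7826, 8409 and 11316 (log2 0.76 ± 0.06). The complement gene C3 was higher by 0.36 ± 0.03, and Lcn2 and C4b were the ones that fell. The neutrophil chemoattractants Cxcl2 and Cxcl5 were higher by 0.90 ± 0.17 and 0.52 ± 0.04, and Cxcl10, an interferon-induced chemokine, by 0.53 ± 0.16 in 5 of 6 pairs. All 11 called chemokine and NF-κB genes were also called higher than in replicate 3. The only called gene of the macrophage and leukocyte list was Ptprc, at 34.5, 38.7 and 40 against 40.8, 55.6 and 58.5 (log2 0.43 ± 0.13). Csf1r, Cd68 and Cd14 were not called, and the Kupffer cell markers Adgre1, Clec4f and Vsig4 were at 0. Cybb, a phagocyte NADPH oxidase gene outside that list, was higher by 1.62 ± 0.19.

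Many genes of secreted hepatocyte proteins were lower in replicate 2. Of 21 tested, 11 were lower and 1 higher, beside 20.5% lower over all genes, with a median of −0.37. Alb had 6314, 6633 and 7189.9 in replicate 1 and 3406, 3896 and 4029.9 in replicate 2, so that every replicate 1 library was above every replicate 2 library (log2 −0.82 ± 0.03, adjusted p = 1.2e-06), and 3124, 3231 and 3441 in replicate 3. Apoe, a lipoprotein ligand, fell by 0.98 ± 0.08, Ambp, the precursor of α1-microglobulin, by 0.72 ± 0.05, and Vtn and Apoc1, both of low signal, by 0.87 ± 0.15 and 0.59 ± 0.10. Serpina1a, which encodes α1-antitrypsin, had 3932, 4213 and 4736 in replicate 1 and 2836, 3011 and 3849.6 in replicate 2, without overlap. It and its paralogs Serpina1b, Serpina1c and Serpina1d fell by 0.41 to 0.51, with an uncertain division of reads among them. Ttr, the thyroxine carrier, was not called, at 3643, 4094 and 4276 against 2679.9, 3949 and 4049. Afp, the fetal counterpart of albumin, was the 1 that was higher, at 49.6, 62.9 and 76.8 against 75, 92.8 and 114 (log2 0.61 ± 0.12). In bulk RNA, fewer cells expressing a gene and less RNA per cell cannot be told apart.

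For 6 of the 21, Alb, Apoc1, Apoe, Rbp4, Serpina1a and Vtn, replicate 2 was called lower than replicate 1 and higher than replicate 3. Against replicate 3, 12 of the 21 were higher and none lower. Apoe, for example, had 788, 829 and 1006 in replicate 1, 376, 431 and 544 in replicate 2 and 166, 188 and 233 in replicate 3, 3 ranges that did not touch. Of 20 tested factors that maintain liver identity, 2 were higher and 4 lower than in replicate 1. Over all genes 20.3% were higher and 20.5% lower. Against replicate 3, 10 of the 20 were higher and 1 lower, beside 22.4% and 23.8% of all genes. The difference from replicate 1 depended on the window for 3 of the 20, beside 2.55% of all genes. Hnf4a, a central regulator of hepatocyte genes, was not called (7013, 7219 and 7546 against 5476, 7582 and 8574), and the 4 lower ones were Foxa1 (−0.42), Onecut1 (−0.49), Onecut2 (−0.25) and the xenobiotic receptor Nr1i2 (−0.57). Of the 8 enzymes and transporters tested, the glucose transporter Slc2a2 fell by 0.55 ± 0.07, while Tat, a tyrosine-degrading enzyme, was higher by 0.52 ± 0.08.

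The PPARα list bears on pemafibrate and was near the background. Of 26 tested genes of PPARα targets and fatty acid oxidation 5 were higher and 3 lower than in replicate 1, with a median of −0.0014. Creb3l3, a hepatic transcription factor, fell by 0.78 ± 0.14. Cpt1a, which admits fatty acids to mitochondria, and Angptl4, an inhibitor of lipoprotein lipase, were not called (log2 −0.05 ± 0.06 and −0.07 ± 0.07).

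Most tested genes of the actin cytoskeleton and cell junctions were lower in replicate 2. Of 24 tested genes of cytoskeleton and junctions 18 were lower and 4 higher, with a median of −0.31, and 12 fell without overlap. Actb, a cytoplasmic actin, had 94166, 99827 and 105120 against 63970, 76743 and 83484 (log2 −0.42 ± 0.04). Actg1, its close homologue, had 95542, 98465 and 111170 against 60251, 74318 and 77230 (log2 −0.53 ± 0.05), and neither gene's libraries overlapped. Vcl, which links actin to adhesions, fell by 0.51 ± 0.06, the actin binder Cnn2 by 0.69 ± 0.07 and the keratin Krt8 by 0.33 ± 0.03. Myl9, a myosin light chain, had the largest fitted difference of the list, −1.98 ± 0.25, from a low signal of 16.9, 27.3 and 42.8 in replicate 1 and 2.97, 6.95 and 9.87 in replicate 2. The 4 higher genes were the tight junction genes Ocln (0.81 ± 0.11) and Cldn2 (0.15), the cadherin Cdh2 (0.25) and the calponin Cnn1 (0.47). Of the 23 genes tested against both other numbers, 16 were lower in replicate 2 than in either, beside 8.94% of all genes.

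Most tested targets of YAP and TEAD were lower too. Of 26 tested, 15 were lower and 3 higher (median −0.26), 10 fell without overlap, and 12 were lower than in either other number. Ankrd1 had 14404, 15409 and 17331 in replicate 1 and 9119.9, 10591 and 12168 in replicate 2 (log2 −0.59 ± 0.06), and Ccn1, a matricellular protein, 8604, 8887 and 10294 against 4130.4, 4618 and 5642 (log2 −0.94 ± 0.07, adjusted p = 2.2e-05). F3, the initiator of coagulation, had 1976, 2145 and 2513 against 839, 927 and 1036 (log2 −1.26 ± 0.06). Tead1, the DNA-binding partner of YAP, fell by 0.43 ± 0.05, while Yap1 was not called (4997, 5373 and 5508 against 5257, 5541 and 5825). Nt5e, Arhgef17 and Gadd45b were higher, by 0.71, 0.28 and 0.11.

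**Figure D3:**
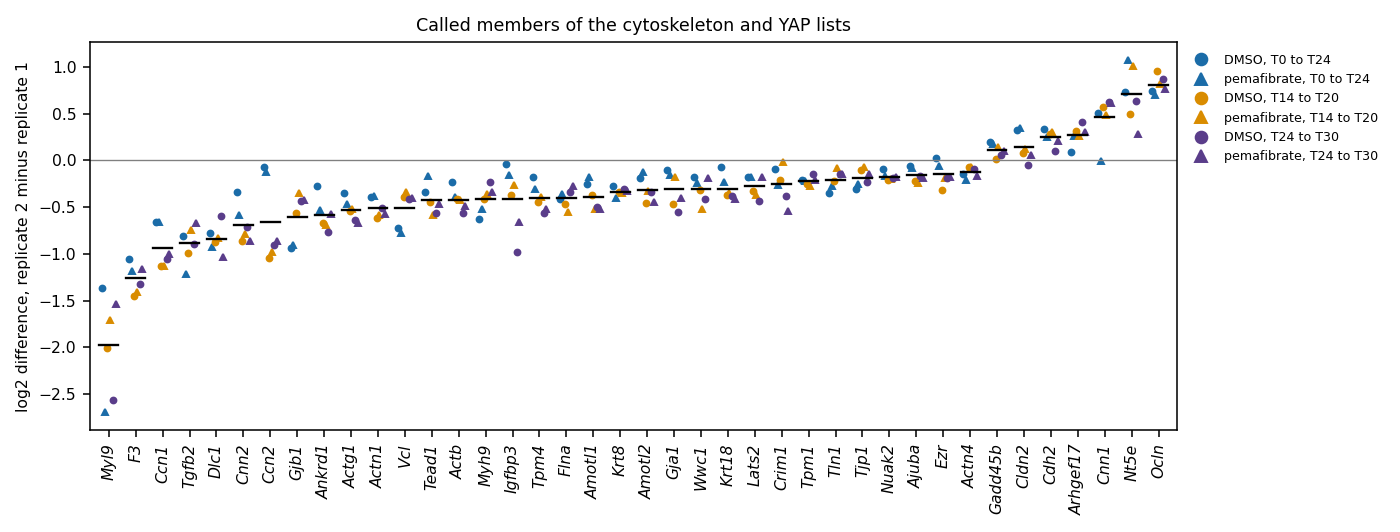
Log2 difference, replicate 2 minus replicate 1, of the members of the cytoskeleton and YAP lists that were called, in order of the fitted difference (black bar), with 6 points per gene, 1 per pair. Members that were not called are left out, so the picture describes direction and spread among called genes only. The 2 Ccn2 points of the T0 to T24 window lie near 0, apart from its other 4.

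The matrix list was near the background against replicate 1, with 5 of 26 tested genes higher and 7 lower. Over all genes 20.3% were higher and 20.5% lower. Against replicate 3, 2 of 25 tested were higher and 15 lower, beside 22.4% and 23.8% of all genes. Fn1, the matrix protein fibronectin, had 45603, 48208 and 55535 in replicate 1 and 24608, 26718 and 30530 in replicate 2 (log2 −0.86 ± 0.07), and Tagln, an actin-binding target of TGF-β, fell by 0.79 ± 0.13. Col6a1, a chain of collagen VI, was higher by 0.83 ± 0.08, without overlap. Col1a1 and Dcn, which fibroblasts express strongly, were higher by 0.92 ± 0.22 and 0.85 ± 0.23 from 11.3, 18.8 and 30 and 5.98, 10.9 and 12.2 in replicate 1, while the stellate markers Pdgfrb, Lrat and Col3a1 reached at most 3.03, 0.994 and 3.32.

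Of 24 S phase genes 20 were lower and 1 higher than in replicate 1, with a median of −0.28, and 20 were lower than in either other number. Tk1, which salvages thymidine, had 1769, 1931 and 2216 in replicate 1, 1243, 1249 and 1635 in replicate 2 and 1853, 1964 and 2198 in replicate 3 (log2 −0.54 ± 0.08 against replicate 1). Cdc6, which loads the replicative helicase, fell by 0.53 ± 0.06 and Mcm4, a subunit of that helicase, by 0.36 ± 0.05, both without overlap. Rrm1, a subunit of ribonucleotide reductase, was higher by 0.12. The list's median was −0.13 at T0 to T24, −0.30 at T14 to T20 and −0.40 at T24 to T30, and no single S phase gene passed the test of dependence on the window. With the 3 DMSO pairs alone 6 S phase genes were called lower. The histone transcripts kept as a sign of RNA quality moved the other way over the windows, with medians of 0.125, 0.39 and 0.56, and Hist1h4i, for example, was higher by 0.59 ± 0.13. Their part in the S phase difference was not tested.

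Of 24 genes of G2 and mitosis 10 were higher and none lower (median 0.12), all with overlapping libraries. The mitotic cyclins Ccnb1 and Ccnb2 were higher by 0.29 ± 0.07 and 0.39 ± 0.09, the checkpoint kinase Bub1b by 0.40 ± 0.06 and Cdc20 by 0.28 ± 0.04. Mki67 was not called. The list's median was 0.24 at T0 to T24, 0.21 at T14 to T20 and −0.04 at T24 to T30, so that the last window did not share the direction. Against replicate 3 all 24 were lower. Without the group term, so that 6 libraries were set against 6, 3 were called higher. Among 21 p53 targets and cell cycle inhibitors 10 were higher and 3 lower. Cdkn2a, a cell cycle inhibitor, had 499.7, 556 and 613 against 787, 861 and 909.6 (log2 0.61 ± 0.04), without overlap. Cdkn2b, a related inhibitor, had 618, 668 and 708 against 878, 974 and 1043 (log2 0.56 ± 0.05), also without overlap. Bbc3 and Trp53inp1, which promote cell death, were higher by 0.53 ± 0.06 and 0.48 ± 0.03.

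Ribosomal protein and respiratory chain genes were higher by small amounts in most members. Of 38 ribosomal protein genes 30 were higher and 1 lower (median 0.23). Rpl13a had 29143, 33648 and 38925 in replicate 1 and 43114, 48251 and 56722 in replicate 2 (log2 0.57 ± 0.05), Rps3 was higher by 0.36 ± 0.04, and Rpl5 was the member that fell, by 0.25. Ribosomal protein genes have many pseudogenes, so their estimates are uncertain. Of 32 nuclear genes of the respiratory chain 22 were higher and none lower (median 0.15), such as Uqcrc2 of complex III (0.26 ± 0.04) and Cox4i1 of complex IV (0.27 ± 0.04). With the 3 DMSO pairs alone, 12 ribosomal and 2 respiratory genes were called. Against replicate 3 the medians were −0.02 for the ribosomal and 0.008 for the respiratory genes. Higher than both other numbers were 1 of the 38 ribosomal and 5 of the 32 respiratory genes, beside 8.91% of all genes. Of the 13 mitochondrially encoded genes 5 were higher, led by mt-Co3 (0.46 ± 0.06), and the 13 together had overlapping sums.

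Glycolysis and hypoxia genes divided. Among 31, 14 were higher and 6 lower. Glycolytic enzymes were among the higher ones, with Aldoa at 0.37, Gapdh at 0.36 and Pkm at 0.33. The lower ones included the hexokinase Hk2, at 180.0, 187 and 232 against 53.5, 81 and 148 (log2 −1.13 ± 0.20), and the angiogenic factor Vegfa, at 1879, 2309.7 and 2781 against 1296, 1427 and 1596 (log2 −0.68 ± 0.09), neither with overlap.

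Against replicate 1 the stress lists were mixed, beside 20.3% higher and 20.5% lower over all genes. Among 33 genes of the ATF4 response 8 were higher and 11 lower, among 22 of the unfolded protein response 7 and 4, among 16 of heat shock 6 and 4, and among 30 NRF2 antioxidant genes 9 and 9. Against replicate 3, 22 of the 33 ATF4 genes were lower and 2 higher. Lower than both other numbers were 10 ATF4, 3 unfolded protein response, 0 heat shock and 6 NRF2 genes, beside 8.94% of all genes. Ddit4, an inhibitor of mTORC1, stood out at 928, 989 and 1091 in replicate 1 and 1776, 2154 and 2238 in replicate 2, without overlap (log2 1.04 ± 0.04, adjusted p = 1.2e-06). Slc7a11, the cystine carrier, fell by 0.39 ± 0.08 and the chaperones Hspa1a and Hspa1b, which are near-identical copies, by 0.36 ± 0.12 and 0.42 ± 0.08. Calr, a chaperone of the endoplasmic reticulum, was higher by 0.33 ± 0.03. Gsta1, a glutathione transferase with close paralogs, had 101, 169 and 235 against 19.9, 54.7 and 97.8 (log2 −1.71 ± 0.19).

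Glucocorticoid genes were mixed, and clock genes were more often lower than higher. Of 18 glucocorticoid and insulin responsive genes 5 were higher and 5 lower, and Zbtb16, a glucocorticoid-induced factor, had 265, 294 and 363 against 106, 133 and 217 (log2 −1.02 ± 0.10). Of 19 clock genes 9 were lower and 2 higher (median −0.13). Per2, a repressor of the clock, fell by 0.48 ± 0.07, Nr1d2, a repressor of Arntl, by 0.40 ± 0.04 and Clock by 0.36 ± 0.04, each in 6 of 6 pairs. Arntl, the activating partner of Clock, was higher by 0.28 ± 0.07. Without the group term 2 clock genes were called lower and none higher.

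**Figure D4:**
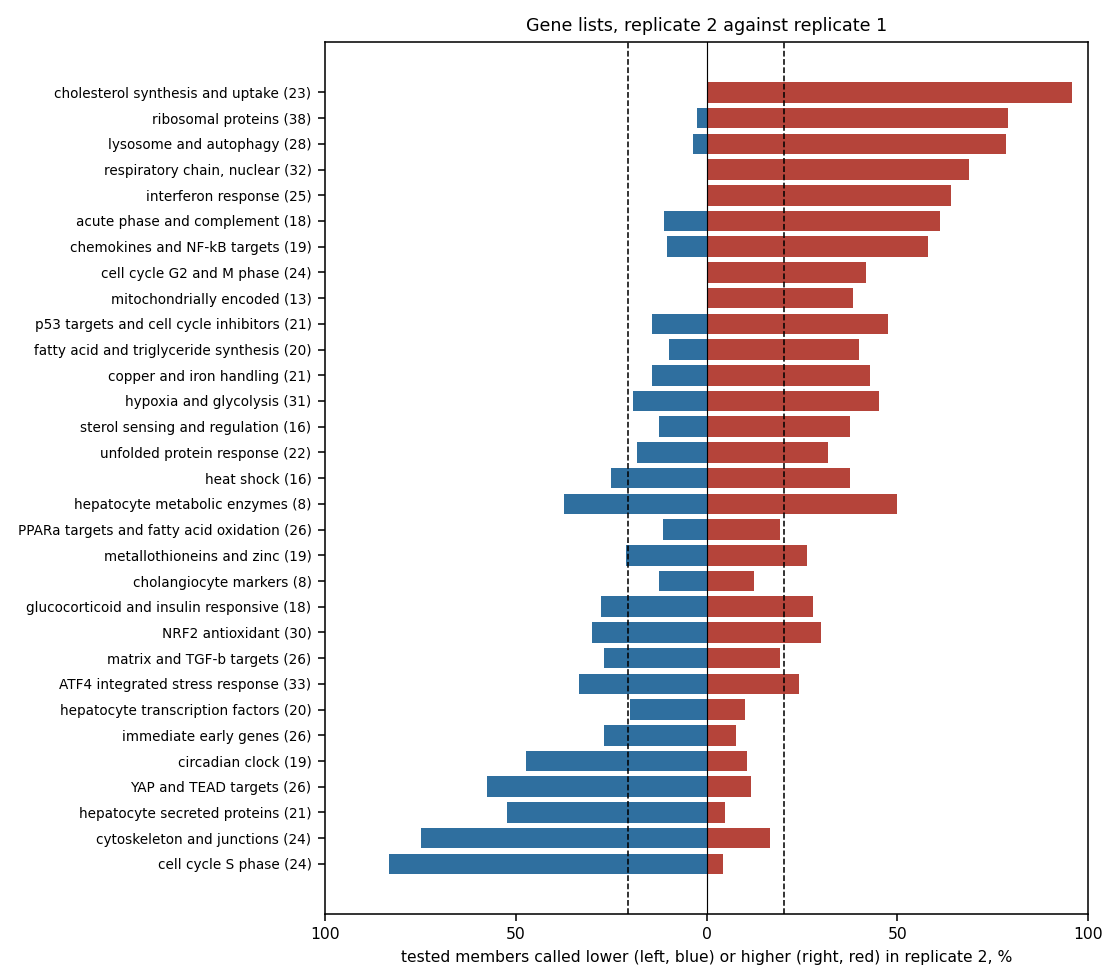
Percentage of tested members called lower (left, blue) or higher (right, red) in replicate 2 for each gene list with at least 8 tested members, the number in brackets. Dashed lines mark the 20.5% lower and 20.3% higher over all 13303 genes. Cholesterol synthesis and uptake, with 22 of 23 higher, and S phase, with 20 of 24 lower, are at the ends.

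Among genes with a mean of at least 100 and the same sign in 6 of 6 pairs, the 12 largest rises and 12 largest falls were named by rule. Serpina3g, Serpina3h and Serpina3i, serine protease inhibitors of 1 paralog cluster whose reads may be divided with error, were among the rises, with 1.87 ± 0.13 for Serpina3g and 1.43 ± 0.05 for Serpina3h. Serpina3h had 316, 359.8 and 418 in replicate 1 and 923, 953 and 1074 in replicate 2, and replicate 3 lay between at 489.8, 515 and 548. Cybb, the catalytic subunit of the phagocyte NADPH oxidase, had 554, 828 and 1088 against 1755, 2314 and 3904 (log2 1.62 ± 0.19), and the chemokine Cxcl3 82, 98.3 and 160.3 against 225, 310.3 and 458 (log2 1.59 ± 0.16). Chil1, a chitinase-like protein, had 80, 86.9 and 116 in replicate 1, 221, 266 and 335 in replicate 2 and 77.8, 101 and 112 in replicate 3, so that replicate 2 alone was high. The same held for Axin2, a feedback target of Wnt signalling, with 48.2, 55.4 and 68.7 in replicate 1, 121, 137 and 199 in replicate 2 and 12.7, 40.4 and 75 in replicate 3. Ms4a4b, Plekhg4, Tenm4 and Ccn5 were higher by 1.54 ± 0.07, 1.85 ± 0.22, 1.66 ± 0.28 and 1.70 ± 0.15. The processed pseudogene Rpl15-ps3 had the largest value, 3.98 ± 1.25, but ran from 0 to 504.3 in replicate 1, and its reads cannot be told from those of Rpl15 with certainty.

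On the other side, Nid1, a basement membrane protein, had 1186, 1308 and 1636 in replicate 1, 353, 483 and 631 in replicate 2 and 980.3, 1189.8 and 1311 in replicate 3, so that replicate 2 alone was low (log2 −1.52 ± 0.09, adjusted p = 5.4e-06). Vgll3, a cofactor of TEAD, had 1357, 1448 and 1650.2 against 412, 636 and 759.7, and 1423, 1829.9 and 1930.1 in replicate 3 (log2 −1.33 ± 0.12 against replicate 1). The actin nucleator Cobl and the α-tubulin Tuba3b fell by 1.47 ± 0.11 and 1.31 ± 0.08 and were also lower than in replicate 3. Ltbp4, which binds latent TGF-β, differed in another way, with 1311, 1463 and 1663 in replicate 1, 422, 536 and 597 in replicate 2 and 487, 570.4 and 623 in replicate 3, where replicate 1 alone stood apart. Nrbp2 and the sulfotransferase Sult1a1 fell by 1.24 ± 0.05 and 1.23 ± 0.12 and were not called against replicate 3. Olfr539, annotated as an olfactory receptor, and Clca3b fell by 1.89 ± 0.12 and 1.29 ± 0.17.

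For 339 genes (2.55%) the replicate difference depended on the window, by limma's moderated F test on the 6 paired differences. In 291 of them the T0 to T24 window stood apart, above the other windows in 161 and below in 130, and in 221 the sign of the difference turned between windows. An unadjusted p under 0.05 was found for 2680 genes. The count was 0 without the variance trend and 22 without the filter on low values, so it depends on those settings. The tables of the windows were normalized separately, so levels are compared here only within a window. Ccn2, a YAP target, had 15830 and 16750 (DMSO and pemafibrate) in replicate 1 and 15090 and 15420 in replicate 2 at T0 to T24. At T14 to T20 it had 17190 and 16170 against 8325 and 8168, and at T24 to T30 15300 and 15020 against 8179 and 8288. The log2 difference was thus −0.09, −1.02 and −0.88, and the replicate 3 libraries were close to replicate 2 in each window.

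Egr1, an immediate early transcription factor, was higher in replicate 2 at T0 to T24 and lower in the 6 h windows. It had 2924 and 2768 in replicate 1 against 3615 and 3702 in replicate 2 at T0 to T24, 2402 and 2387 against 1223 and 1267 at T14 to T20, and 1931 and 1931 against 1109 and 1167 at T24 to T30. The DMSO and the pemafibrate pair of a window gave like values, with mean log2 differences of 0.36, −0.94 and −0.76. Hmga2, a chromatin protein of proliferating cells, turned in the same way (0.64, −0.26 and −0.33). Ugt2b34, a glucuronosyltransferase with close paralogs, was lower in replicate 2 throughout, most at T0 to T24, where it had 4396 and 4550 against 1319 and 1368 (−1.73, then −0.50 and −0.51). The pseudogene Pgam1-ps2 was also named by its p but was at 0 in several libraries.

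**Figure D5:**
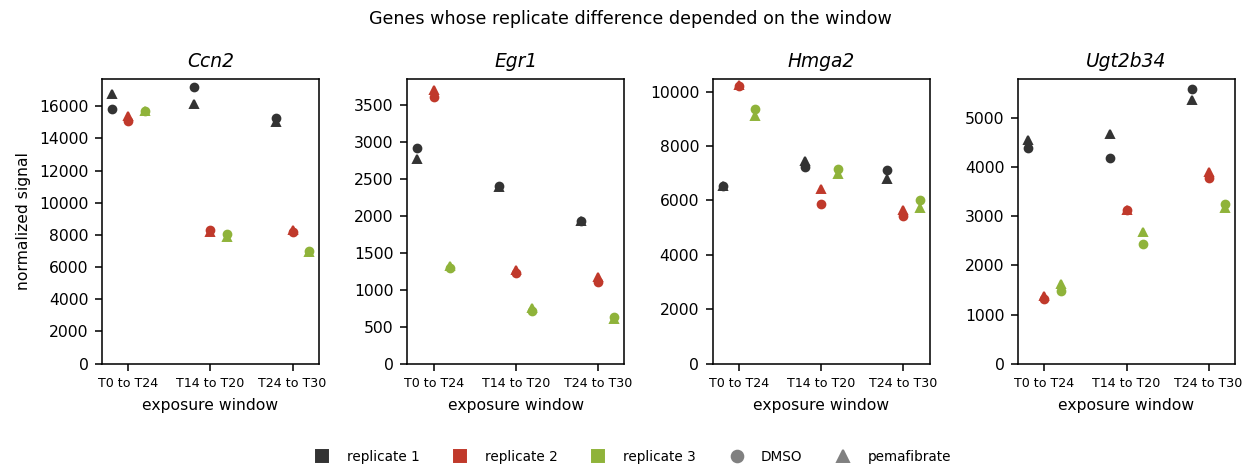
Normalized signal (linear axis from 0) of Ccn2, Egr1, Hmga2 and Ugt2b34 by exposure window, with colour for the replicate number and shape for the treatment. Replicate 2 and replicate 1 lie together for Ccn2 at T0 to T24 and apart in the 6 h windows, and for Egr1 and Hmga2 their order turns between T0 to T24 and the 6 h windows.

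The immediate early list carried many of these cases. Of its 26 tested genes 10 depended on the window, beside 2.55% of all genes, and its median was 0.06 at T0 to T24, −0.20 at T14 to T20 and −0.18 at T24 to T30. Over all windows 2 were higher and 7 lower, and without the T0 to T24 window 14 were lower. Dusp1, a phosphatase of MAP kinases, fell by 0.63, 1.45 and 1.26 in the 3 windows, and Nr4a1, an inducible nuclear receptor, differed by −0.09, −0.91 and −1.31. Among the 19 chemokine and NF-κB genes 5 depended on the window, with a median of 0.47 at T0 to T24 against 0.10 and 0.15 in the 6 h windows.

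The replicate difference was not shown to depend on treatment. In the test of pemafibrate pairs against DMSO pairs 0 of 13303 genes (0%) passed in limma, and 243 had an unadjusted p under 0.05. The same count of 0 was found without the variance trend, without the filter, with a pseudocount of 10 and after median-ratio rescaling. Mroh2a, Iqsec2, S100a7a, Mindy4 and Nr3c2 had the smallest p in that test, and with 3 pairs on each side a missed threshold does not show that the pairs did not differ.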

How the data were processed

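Per the labels' protocols, libraries were made strand-specific with dUTP from poly(A) RNA and sequenced as DNA nanoballs. The authors deposited 1 table per window whose values are normalized signal, estimated counts per gene scaled within the window, per the file headers. No counter, genome build or annotation is named in what was used here, and read depth is unknown. Of 35551 gene IDs 35181 matched a symbol.

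Values were taken as log2(value + 1). Genes whose mean over the 12 libraries reached 10 were fitted with limma 3.58.1 in R 4.3.3, with terms for group and replicate number and a variance trend, two-sided, with Benjamini-Hochberg adjustment over all genes and a threshold of 0.05. Dependence on window or treatment was tested on the 6 paired differences. The fit was tested on simulated data.

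The members, taken by replicate number, and the 35 gene lists were chosen with earlier results of these data known. Named by rule were Mt1, Mt2, Insig1 and Alb, the 12 largest rises and falls among called genes with a mean of at least 100, 6 of 6 pairs of 1 sign and a proper symbol, up to 4 called members per list, and the 5 smallest p in each test of dependence. Other list members were named for their role, after their values were seen. Some list members are not reported by name here. Promoter windows were matched by symbol to RefSeq. Other pseudocounts, filters, scalings, variance models and subsets of pairs were tried.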

Additional observations from a re-analysis of the deposited data

Results flagged for a closer look

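In 8 of the 156 named genes 1 of the 6 paired differences (replicate 2 minus replicate 1, log2) lay far from the other 5 by Dixon's criterion, which chance meets in about 1 in 20 genes, so 8 of 156 is about that rate. The pemafibrate pair of T14 to T20 was the one apart for Chil1 (0.93), Serpina3n (2.21) and Nr1d2 (−0.547). The DMSO pair of T14 to T20 was apart for Slc7a11 (0.0559) and Car9 (0.304), the DMSO pair of T24 to T30 for Cox4i1 (0.449) and mt-Co1 (−0.0125), and the pemafibrate pair of T0 to T24 for Per1 (0.204). The clock gene Per1, the cystine carrier Slc7a11 and the carbonic anhydrase Car9 were lower in replicate 2 in the other 5 pairs.

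In 19 named genes the replicate difference itself differed between windows, by limma's F test on the paired differences. The gap between the largest and the smallest window difference was 9.07 for the pseudogene Pgam1-ps2, which had several libraries at 0. Immediate early and YAP-related genes had gaps of 1.31 (Egr1), 1.22 (Nr4a1), 0.82 (Dusp1), 0.921 (Ccn2), 0.474 (Ccn1) and 0.817 (Vgll3). Metabolic and growth-related genes had 1.32 (Hk2), 1.23 (Ugt2b34), 0.611 (Vegfa), 0.971 (Hmga2), 0.583 (Onecut1), 0.465 (Hmox1) and 0.338 (Scd2). Inflammatory and matrix genes had 1.12 (Cxcl3), 0.841 (Serpina3g), 0.598 (Hp), 0.447 (Fn1) and 0.417 (Spp1).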

How the results depend on the processing

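With the replicate number as a block, no paired analysis was possible because the replicate number is itself what was compared; the pairing by group is in the fit. Leaving out 1 pair in turn gave 2119 to 2517 genes higher and 2144 to 2609 lower. The T14 to T20 window alone gave 2101 and 2130. Against 2702 higher and 2727 lower with all 6 pairs, separate fits called 681 and 660 with the 3 DMSO pairs, 1347 and 1381 with the 3 pemafibrate pairs, 1606 and 1675 with pairs averaged within windows, 1498 and 1438 at T0 to T24 alone, 1368 and 1387 at T24 to T30 alone, and 45 and 26 against a 1.5-fold minimum; fewer units or a stricter hypothesis are part of these settings. The 101 higher and 104 lower by 2-fold became 59 and 45 with a pseudocount of 10, 235 and 210 without a filter, 44 and 43 with a mean of at least 50, 33 and 20 with the 1.5-fold minimum, and 61 lower with the DMSO pairs. The 339 window-dependent genes became 22 without a filter and 0 without the variance trend; the cause was not tested. Over the named genes and settings 11 values reversed in sign and 431 lost their call. Reversed were Ass1 (−0.018), Pgam1-ps2 (−0.62) and Egr1 (0.36) at T0 to T24 alone, Mroh2a with the pemafibrate pairs (−0.0379), Iqsec2 with the DMSO pairs (−0.20), and Hmga2, whose difference of 0.02 was not called, without the DMSO or the pemafibrate pair of T0 to T24 (−0.10 each; 0.10 without the DMSO pair of T24 to T30), with the DMSO pairs (−0.015), at T14 to T20 (−0.26) and T24 to T30 (−0.33) alone, and without the T0 to T24 window (−0.29), a setting added after the data were seen. Neither rescaling moved the median of all genes by more than 0.0048.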
